A study of Mus musculus with 6 samples.

Results

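The DNA replication machinery was followed through 49 genes in mouse embryos: the origin recognition complex, the licensing factors, the MCM helicase and its activators, the replicative polymerases, the sliding clamp and its loader, and the genes that supply histones and nucleotides at the fork. The members were chosen by name from the known roles of the genes, and all 49 were among the 23259 gene names of the deposited table. One row was kept per name, the one with the most reads over all columns. Of the 49, 43 had at least 20 reads over the 3 columns and entered the test of total reads, and 23 had at least 10 reads with a T-to-C mismatch, which include those of newly made RNA, and entered the test of these T-to-C reads.

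Replication starts at origins that are bound by the origin recognition complex, which with CDC6 and CDT1 loads the MCM2 to MCM7 ring in an inactive form. The kinase formed by CDC7 and DBF4 and the cyclin-dependent kinases then bring CDC45 and the GINS complex to the ring, which makes the active helicase, and polymerases, clamp and clamp loader copy the strands behind it. The oocyte stores mRNA and protein for the first cell cycles, and the mouse embryo replaces this store with its own transcripts from around the 2-cell stage.

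The study measured stored and newly made RNA by metabolic labelling with 4-thiouridine (S4U), a form of uridine that is taken up into RNA as it is made and that reads as a T-to-C mismatch after alkylation with iodoacetamide. Groups were zygotes with the genotype Pabpn1l-null, wild-type (WT) 2-cell embryos and WT zygotes, with 2 samples of 50 embryos each, all kept for 2 h in medium with 200 μM S4U and all depleted of ribosomal RNA before library construction. PABPN1L binds poly(A) tails in the oocyte and early embryo and takes part in clearing maternal mRNA. The labels give no allele and do not say whether the mother, the embryo or both lacked the gene. Their protocol text is the same for every sample and starts the labelling 26 h after hCG, the hormone given to trigger ovulation. It speaks of zygotes only and gives no collection time for the 2-cell embryos.

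The deposited table has 1 column of reads and 1 column of T-to-C reads per group, so no replicate check was possible. All tests compare these libraries, not the conditions, and intervals and limits cover counting error only. The columns held 1270347 reads in Pabpn1l-null zygotes, 4020444 in 2-cell embryos and 3001472 in WT zygotes. Of these reads, 3.86% carried a T-to-C mismatch in null zygotes, 4.54% in 2-cell embryos and 3.03% in WT zygotes. The null column was the shallowest, and its low counts came in clumps: among 1295 genes predicted from the WT zygote column to have 3 to 5 reads there, 58.3% had none, against 2.45% if reads were independent. Every 7 reads were counted as 1 molecule in all columns, and a count of 0 allows up to 3 molecules, or 21 reads. The clumps were measured in the null column only, on total reads. Their size in the other columns and among T-to-C reads is assumed to be the same. Pabpn1l itself had 4 reads in null zygotes, 14 in 2-cell embryos and 47 in WT zygotes, a difference within counting error at this depth (ratio of null to WT zygotes 0.192, 95% interval 0.000387 to 2.24). All 10 oocyte and zygote markers were detected in every column, with a summed level of 18254 in null zygotes, 3230.2 in 2-cell embryos and 14377 in WT zygotes, in reads out of every 1000000, scaled by TMM factors (RPM). The 8 markers of the 2-cell stage found in the table summed to 92.9 RPM in null zygotes, 2297 in 2-cell embryos and 263 in WT zygotes. Among them Arg2 and Dux stood lower in 2-cell embryos than in WT zygotes, and the others higher. Arg2 had 77.1 RPM in null zygotes, 61.7 in 2-cell embryos and 193 in WT zygotes, most of both zygote sums. Dux had 9.82 RPM in null zygotes, 21.7 in 2-cell embryos and 50.2 in WT zygotes. The 10 markers of cumulus and granulosa cells summed to 20.4 RPM in null zygotes (8 at 0), 24.01 in 2-cell embryos (5 at 0) and 41.8 in WT zygotes (5 at 0). Ptx3, Tnfaip6, Inhba and Cd44 were at 0 in all columns. Cyp19a1 held most of both zygote sums, with 17.4 RPM in null zygotes, 0 in 2-cell embryos and 26.8 in WT zygotes. It was called lower in 2-cell embryos than in WT zygotes (adjusted p 6.71e-04, exact conditional binomial test). Ptgs2 had 9.55 RPM in 2-cell embryos and 0 in both zygote columns. The part of such cells in the results was not tested. Fewer cells of a type and less RNA per cell cannot be told apart in pooled embryos.

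Levels are given in RPM, which is not per gene length, so they compare columns within a gene and not genes with each other. A member was called higher or lower when the adjusted p of an exact conditional binomial test on molecules was under 0.05 (Benjamini-Hochberg, over all genes tested) and the ratio was at least 2-fold. Ratios are followed by their 95% interval in parentheses. Both comparisons use the same WT zygote column.

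**Figure D1:**
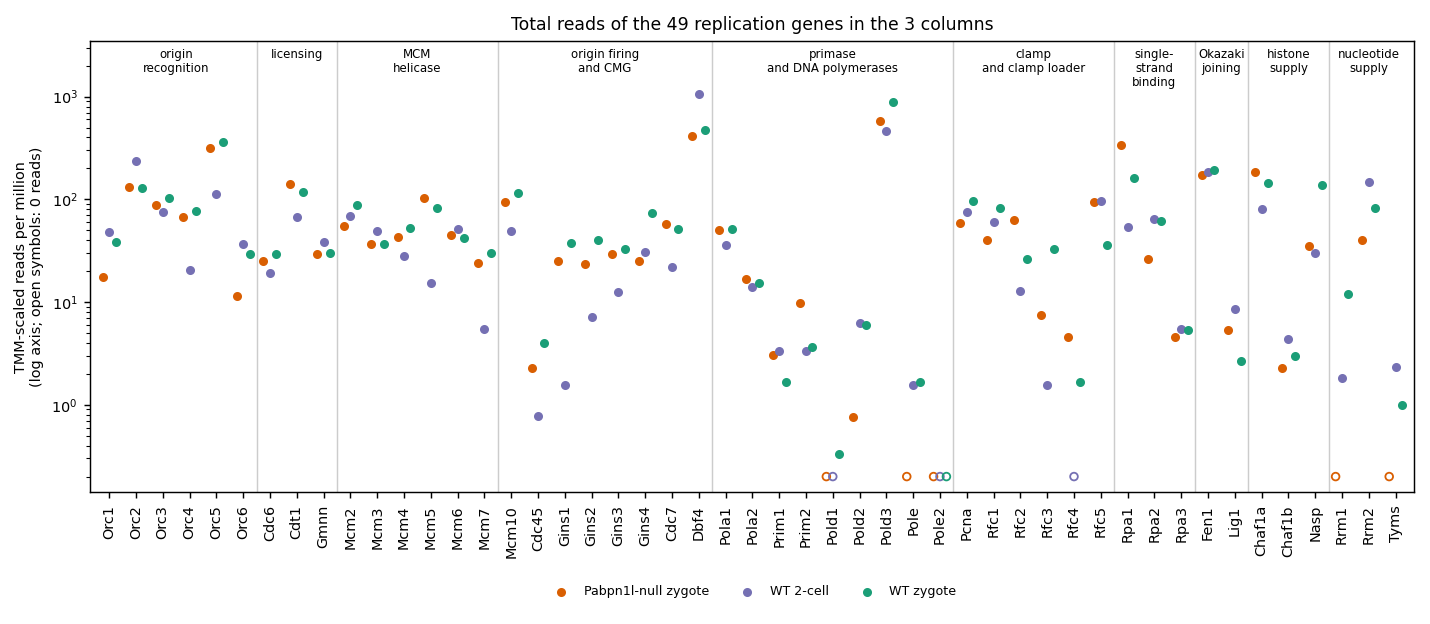
Level of each of the 49 members in Pabpn1l-null zygotes, WT 2-cell embryos and WT zygotes, in RPM on a log axis, grouped by role; heights compare columns within a gene only. Dbf4 stands at 1060.4 RPM in 2-cell embryos against 474 in WT zygotes, while Gins1, Rfc3, Mcm5, Mcm7 and Nasp sit lower in 2-cell embryos than in WT zygotes.

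The promoters of 6 members that the results turn on are shown, as genes that differed in opposite directions between the WT columns. They are the 250 bases before a RefSeq start of each gene (GRCm38.p6, the assembly that mm10 represents). Each is given 5′ to 3′ on the strand of the gene, with motif matches in capitals. The Nasp window lies wholly inside the span of Nasp given below, and those of Mcm5 and Dbf4 run partly into theirs. For these genes the window is thus not the one before the outermost start. Dbf4 (chr5:8422717-8422966, minus strand), Rrm2 (chr12:24708004-24708253, plus strand), Rfc5 (chr5:117389024-117389273, minus strand) and Pold3 (chr7:100121503-100121752, minus strand) are shown because in 2-cell embryos Dbf4 and Rfc5 were higher in total reads, Dbf4 and Rrm2 in T-to-C reads, and Dbf4 and Pold3 in the share of T-to-C reads. Mcm5 (chr8:75109259-75109508, plus strand) and Nasp (chr4:116627952-116628201, minus strand) were lower there in total reads.
Dbf4: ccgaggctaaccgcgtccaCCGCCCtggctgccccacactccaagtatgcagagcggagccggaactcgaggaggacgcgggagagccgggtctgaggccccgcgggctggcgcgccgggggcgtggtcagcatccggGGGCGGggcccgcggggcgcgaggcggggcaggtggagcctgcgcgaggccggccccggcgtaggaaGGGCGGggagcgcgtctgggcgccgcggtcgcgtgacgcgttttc
Rrm2: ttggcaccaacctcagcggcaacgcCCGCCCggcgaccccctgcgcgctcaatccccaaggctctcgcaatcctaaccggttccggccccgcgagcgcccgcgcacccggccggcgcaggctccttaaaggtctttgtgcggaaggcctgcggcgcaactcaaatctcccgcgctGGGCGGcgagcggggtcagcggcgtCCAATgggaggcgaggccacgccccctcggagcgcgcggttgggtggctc
Rfc5: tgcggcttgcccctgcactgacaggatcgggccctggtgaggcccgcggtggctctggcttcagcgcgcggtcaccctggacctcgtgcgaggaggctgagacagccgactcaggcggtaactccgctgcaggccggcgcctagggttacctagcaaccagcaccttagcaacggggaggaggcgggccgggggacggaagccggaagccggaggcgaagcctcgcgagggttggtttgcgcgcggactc
Pold3: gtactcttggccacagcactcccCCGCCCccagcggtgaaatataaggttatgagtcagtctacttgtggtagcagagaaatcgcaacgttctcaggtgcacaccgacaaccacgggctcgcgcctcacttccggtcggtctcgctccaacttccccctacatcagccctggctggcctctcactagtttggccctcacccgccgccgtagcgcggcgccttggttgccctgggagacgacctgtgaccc
Mcm5: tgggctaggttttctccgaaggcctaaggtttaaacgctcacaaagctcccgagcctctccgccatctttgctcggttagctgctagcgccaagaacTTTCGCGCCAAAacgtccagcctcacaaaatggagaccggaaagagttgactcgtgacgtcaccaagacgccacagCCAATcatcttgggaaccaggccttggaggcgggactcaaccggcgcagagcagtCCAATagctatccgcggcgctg
Nasp: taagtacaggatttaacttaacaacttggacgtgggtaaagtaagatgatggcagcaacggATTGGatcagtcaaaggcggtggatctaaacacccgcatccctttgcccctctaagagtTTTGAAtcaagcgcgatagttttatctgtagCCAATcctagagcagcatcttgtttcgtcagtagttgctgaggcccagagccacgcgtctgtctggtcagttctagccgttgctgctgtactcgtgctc

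The motifs searched on both strands were the E2F letters TTTCCCGC, TTTGGCGC, TTTCGCGC and TTTGCCGC, the CHR element with the letters TTTGAA, the CCAAT box by its own letters, and the GC box with the letters GGGCGG. E2F factors are known regulators of replication genes in cycling cells. RefSeq promoters were at hand for 41 of the 49 members, 50 windows in all. An E2F match stood in 9 of them (18%), in Orc1, Orc3, Cdc6, Mcm5, Mcm6, Mcm7, Gins3, Pola1 and Rfc3, against 3.25% of the 10157 promoters of tested genes and 1.86% of all 32851. CCAAT was in 52.0% of the members' windows against 36.1% of those of tested genes, the GC box in 64.0% against 57.0%, and CHR in 14.0% against 10.9%. The members' windows had a median GC content of 61.2%, against 59.6% for tested genes. In the Mcm5 window above, a single run of capitals holds 2 overlapping E2F matches, one on each strand. The windows of Dbf4, Rrm2, Rfc5 and Pold3 hold none: Dbf4 has 3 GC boxes, Rrm2 has 2 and a CCAAT, Pold3 has 1 GC box, and Rfc5 has no match to any of the motifs. The window of Nasp, which fell as Mcm5 did, holds no E2F match either, but a CHR and 2 CCAAT matches. These matches describe letters, not binding, and their part in the differences was not tested.

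**Figure D2:**
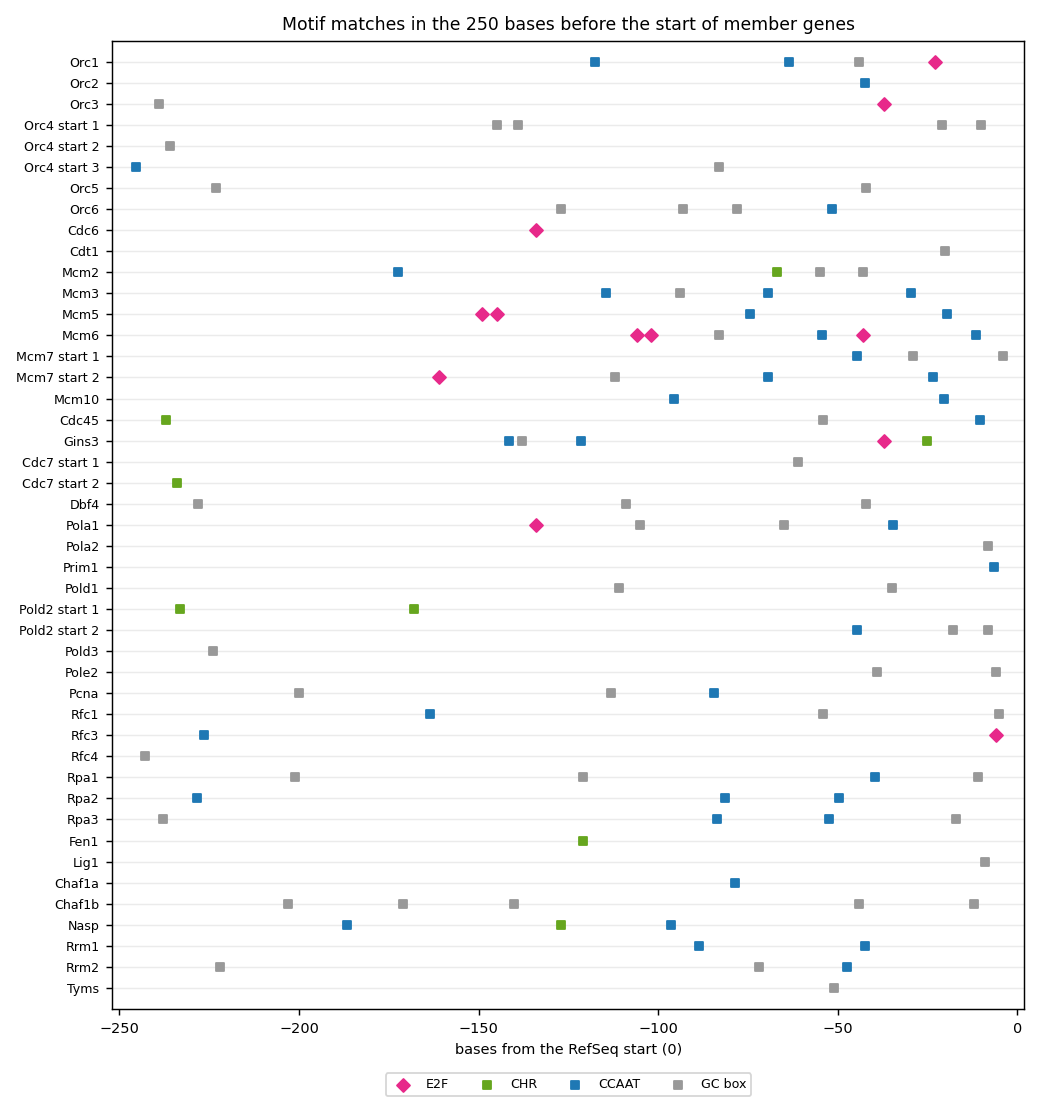
Positions of E2F, CHR, CCAAT and GC box matches in the 250 bases before a RefSeq start of member genes, on an axis of bases from that start, with 1 row for each window that holds a match. The 2 overlapping matches of Mcm5 lie side by side, and the row of Dbf4 shows its 3 GC boxes and no E2F match.

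In WT 2-cell embryos against WT zygotes, 2 members rose in total reads (Dbf4 and Rfc5) and 11 fell: Orc4 and Orc5 of the origin recognition complex, Mcm5 and Mcm7 of the helicase ring, Mcm10, Gins1, Gins2 and Gins4 of helicase activation, the clamp loader subunit Rfc3, the single-strand binding subunit Rpa1 and the histone chaperone Nasp. The 2 that rose are 4.65% of the 43 tested, where 16.4% of all 11262 genes tested rose, and the 11 that fell are 25.6%, where 15.9% of all genes fell. The median log2 ratio was -0.45 over the members and 0.04 over all genes tested. Summed over all members, the ratio of total reads was 0.830 (95% interval 0.777 to 0.886), and 0.647 without Dbf4. With RLE factors in place of TMM the median of all genes moved to 0.28 and that of the members to -0.19. The summed ratio with RLE factors was 0.996, outside the interval above, which covers counting error only. Then 4 members were higher and 9 lower, where 20.3% of all genes tested were higher and 12.7% lower. edgeR's exact test at an assumed coefficient of variation of 0.4 allows for spread between samples that the table does not show. It was run on reads, not on molecules of 7 reads, so clumped reads count as separate. With it, 0 members were higher and 6 lower, where 15.4% of all genes tested were higher and 10.9% lower. Mcm5, Mcm7, Gins1, Gins2 and Rfc3 were among the 6.

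In Pabpn1l-null zygotes against WT zygotes, 1 member rose (Rpa1) and 1 fell (Nasp) among the 43 tested. That is 4.65%, where 1.36% of all genes were called in either direction, 0.684% higher and 0.675% lower. The median log2 ratio was -0.20 over the members and -0.15 over all genes tested, and 13 members had a ratio above 1 and 30 below. At an unadjusted p under 0.05 in the exact test there were 5 members. The counts of ratios above or below 1 and of unadjusted p were not set beside those of all genes. They are not read as a lean of the members. With edgeR's exact test on reads, neither Rpa1 nor Nasp was called and Rrm1 alone was lower, where 0.994% of all genes were. The median member had 39 reads in the null column, so intervals were wide, and a member not called may still differ.

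**Figure D3:**
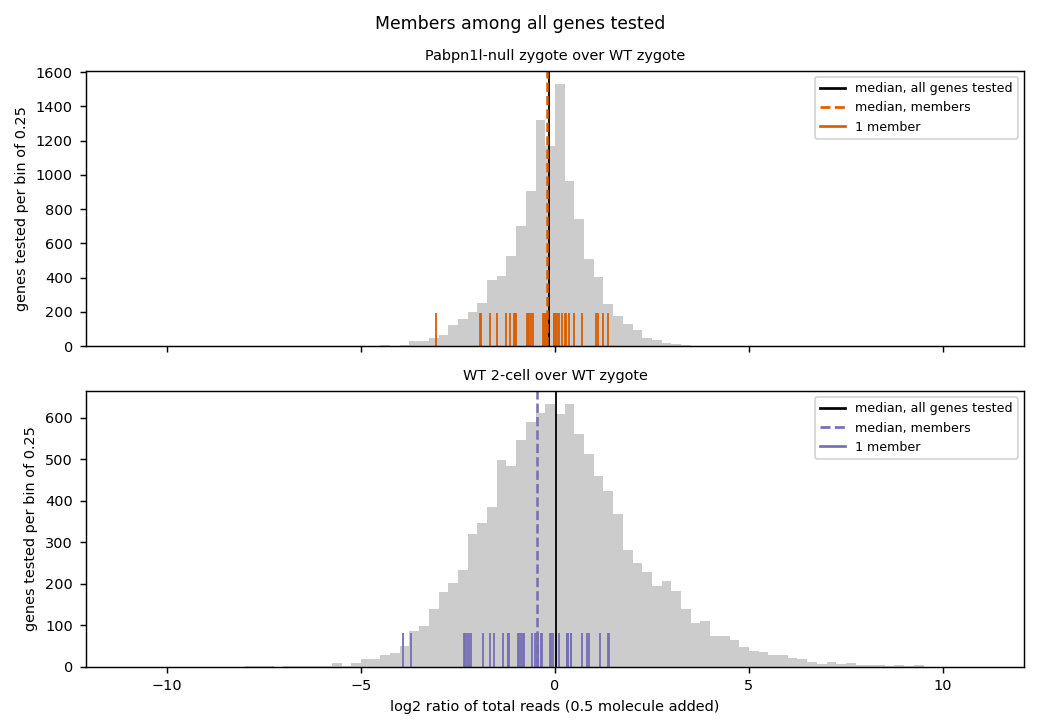
Log2 ratios of total reads for all genes tested (grey bars, genes per bin of 0.25) with each tested member as a short line and the medians as vertical lines, for Pabpn1l-null zygotes over WT zygotes (top) and WT 2-cell embryos over WT zygotes (bottom). The median of the members lies close to that of all genes in the top panel (-0.20 and -0.15) and below it in the bottom panel (-0.45 and 0.04).

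Among the 6 subunits of the origin recognition complex, the ATPase that marks origins, Orc4 and Orc5 fell in 2-cell embryos. Orc5 (chr5:22486480-22550338) stood at 315 RPM in null zygotes (417 reads), 114 in 2-cell embryos (440 reads) and 363 in WT zygotes (1085 reads). The ratio of 2-cell embryos to WT zygotes was 0.313 (0.230 to 0.422), adjusted p 5.35e-15 in the exact binomial test. That of null to WT zygotes was 0.868 (0.633 to 1.18), not called. Orc4 stood at 67.2 RPM in null zygotes (89 reads), 20.4 in 2-cell embryos (79 reads) and 76.2 in WT zygotes (228 reads). The ratio between the WT stages was 0.268 (0.123 to 0.540) with an adjusted p of 3.46e-04 in the exact test. Orc2, named here after its values were seen, had the opposite sign without reaching 2-fold: 238 RPM in 2-cell embryos against 128 in WT zygotes, ratio 1.86 (1.35 to 2.60), adjusted p 4.25e-04 in the exact test, and above 2-fold with RLE factors. The ratios of Orc1, Orc3 and Orc6 between the WT stages ran from 0.729 to 1.26, and none was called. In null zygotes the ratios of the 6 to WT zygotes ran from 0.385 to 1.02, none called. Other RefSeq genes lie over the spans of Orc4 and Orc5 (Gm15421 and Gm22887 for Orc5), and the sources used here do not say whether counting used strand.

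The licensing factors gave no calls. Cdt1, which carries MCM rings to origins, stood at 142 RPM in null zygotes (188 reads), 66.6 in 2-cell embryos (258 reads) and 117 in WT zygotes (351 reads). Its ratio between the WT stages was 0.567 (0.361 to 0.886) and passed the adjusted p (0.0328, exact test) but not 2-fold. Gmnn, the geminin inhibitor of CDT1, named after its values were seen, had 39 reads in null zygotes, 149 in 2-cell embryos and 90 in WT zygotes, with 0 T-to-C reads in each. Cdc6, the loading ATPase, named after its values were seen, stood at 24.9 RPM in null zygotes (33 reads), 19.4 in 2-cell embryos (75 reads) and 29.4 in WT zygotes (88 reads), with no call in either comparison.

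Of the 6 subunits of the MCM ring, Mcm5 and Mcm7 fell in 2-cell embryos, and the ratios of Mcm2, Mcm3, Mcm4 and Mcm6 between the WT stages ran from 0.536 to 1.34 with none called. In null zygotes the ratios of the 6 to WT zygotes ran from 0.623 to 1.22, none called. Mcm5 (chr8:75109468-75128439) stood at 102 RPM in null zygotes (135 reads), 15.5 in 2-cell embryos (60 reads) and 83.3 in WT zygotes (249 reads). Its ratio of 2-cell embryos to WT zygotes was 0.186 (0.0771 to 0.40), adjusted p 6.89e-06 in the exact test. Null zygotes stood at 1.22 (0.665 to 2.19) times WT zygotes and were not called. Mcm7 had 32 reads in null zygotes, 21 in 2-cell embryos and 90 in WT zygotes, and fell to 0.180 (0.0329 to 0.657) times the WT zygote level in 2-cell embryos (adjusted p 0.0166, exact test). The microRNA host gene Mcm7 shares its span with Mir25, Mir93, Mir106b and Ap4m1. Mcm2, the subunit with the most reads, stood at 54.4 RPM in null zygotes (72 reads), 68.7 in 2-cell embryos (266 reads) and 87.3 in WT zygotes (261 reads). Its ratio between the WT stages was 0.787 (0.487 to 1.27).

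The genes that turn the loaded ring into a helicase held Dbf4, the member with the most reads in 2-cell embryos, which rose there, and 4 members that fell. Dbf4, the activating subunit of the CDC7 kinase (chr5:8396969-8422725), stood at 418 RPM in null zygotes (553 reads), 1060.4 in 2-cell embryos (4107 reads) and 474 in WT zygotes (1416 reads). It rose in 2-cell embryos with a ratio of 2.24 (1.91 to 2.64, adjusted p 6.09e-24, exact test), while null and WT zygotes did not differ beyond counting error (ratio 0.882, 0.671 to 1.15). Cdc7, the catalytic partner, had 77 reads in null zygotes, 85 in 2-cell embryos and 154 in WT zygotes, so its ratio between the WT stages lay below 1 (ratio 0.426, 0.193 to 0.897, adjusted p 0.0591 in the exact test) and was not called. It is named after its values were seen.

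The GINS complex has 4 subunits and binds the ring together with CDC45. Gins1 had 33 reads in null zygotes, 6 in 2-cell embryos and 112 in WT zygotes, and its ratio of 2-cell embryos to WT zygotes was 0.0414 (5.83e-04 to 0.296, adjusted p 1.30e-04, exact test). Its second row in the table, not used, held 16 reads in null zygotes, 0 in 2-cell embryos and 28 in WT zygotes. Gins2 had 31 reads in null zygotes, 28 in 2-cell embryos and 119 in WT zygotes, and fell in 2-cell embryos with a ratio of 0.182 (0.0445 to 0.557, adjusted p 0.00396, exact test). Gm20550 overlaps the span of Gins1 and Gse1 that of Gins2, and whether counting used strand is not stated. Gins4 had 33 reads in null zygotes, 119 in 2-cell embryos and 218 in WT zygotes, and fell with a ratio of 0.421 (0.219 to 0.785, adjusted p 0.0161, exact test). Gins3, named to complete the complex after its values were seen, had 39 reads in null zygotes, 48 in 2-cell embryos and 99 in WT zygotes, a ratio of 0.374 (0.127 to 0.994) between the WT stages, not called. So all 4 had fewer scaled reads in 2-cell embryos than in WT zygotes, and 3 were called. Gins4 lost its call with RLE factors. Mcm10, which helps the helicase start, stood at 94.4 RPM in null zygotes (125 reads), 49.1 in 2-cell embryos (190 reads) and 115 in WT zygotes (343 reads). Between the WT stages the ratio was 0.428 (0.257 to 0.697, adjusted p 0.00169, exact test), a call also lost with RLE factors. Cdc45 had 3 reads in null zygotes, 3 in 2-cell embryos and 12 in WT zygotes, below the filter.

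**Figure D4:**
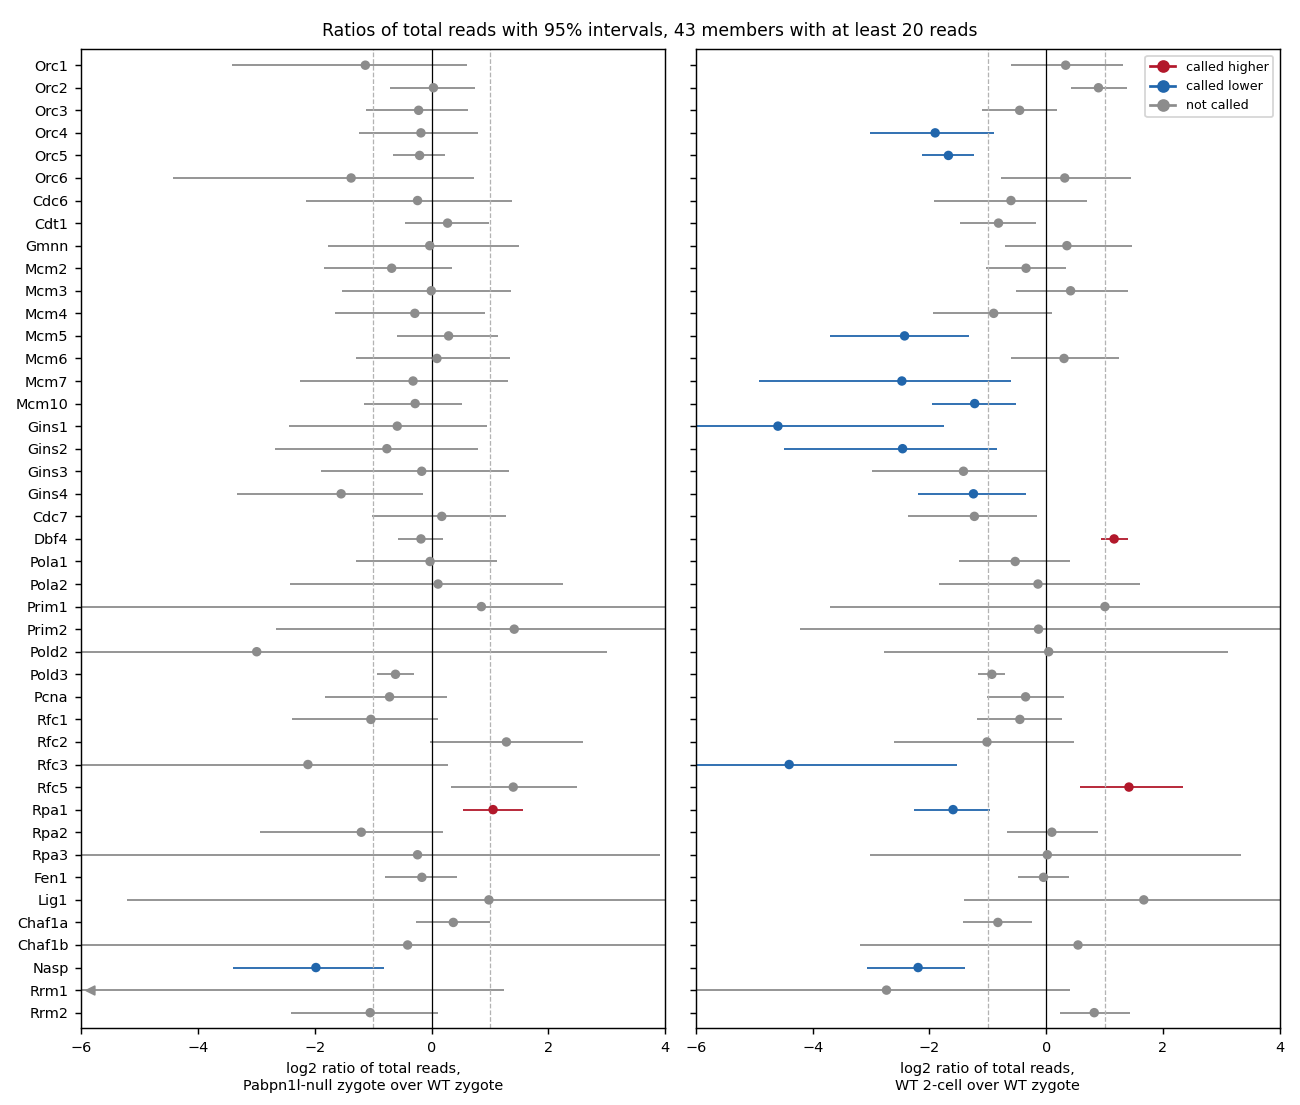
Log2 ratio of total reads with its 95% interval for the 43 members tested, for Pabpn1l-null zygotes over WT zygotes (left) and WT 2-cell embryos over WT zygotes (right); dashed lines mark 2-fold, intervals may run past the axis, and the triangle marks Rrm1, with 0 reads in null zygotes. Rpa1 (red) and Nasp (blue) are the called members on the left, and on the right Dbf4 and Rfc5 are red and 11 members blue.

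Of the 9 subunits of primase and the polymerases, 6 were tested and none was called. Pold3, an accessory subunit of polymerase delta (chr7:100082110-100121502), stood at 579 RPM in null zygotes (767 reads), 466 in 2-cell embryos (1805 reads) and 889 in WT zygotes (2658 reads). It passed the adjusted p in both comparisons without reaching 2-fold: 0.652 (0.522 to 0.808) for null zygotes (adjusted p 0.00385, exact test) and 0.524 (0.446 to 0.616) for 2-cell embryos (adjusted p 1.16e-14, exact test), both against WT zygotes. The catalytic subunits of polymerases delta and epsilon had few reads: Pold1 had 1, in WT zygotes, and Pole had 0 reads in null zygotes, 6 in 2-cell embryos and 5 in WT zygotes. The ratios of Pola1, Pola2, Prim1, Prim2 and Pold2 between the WT stages ran from 0.692 to 2.01. Pole2, the second subunit of polymerase epsilon, had 0 reads in all columns, which allows up to 15.9 RPM in null zygotes, 5.42 in 2-cell embryos and 7.02 in WT zygotes.

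PCNA is the ring that holds polymerases on DNA, and the RFC complex opens and loads it. Pcna stood at 58.9 RPM in null zygotes (78 reads), 75.9 in 2-cell embryos (294 reads) and 97.0 in WT zygotes (290 reads). It had ratios of 0.608 (0.283 to 1.20) for null zygotes and 0.783 (0.497 to 1.23) for 2-cell embryos against WT zygotes, neither called. Of the loader subunits, Rfc5 rose and Rfc3 fell between the WT stages. Rfc5 (chr5:117379145-117389023) stood at 94.4 RPM in null zygotes (125 reads), 95.5 in 2-cell embryos (370 reads) and 35.8 in WT zygotes (107 reads). It rose in 2-cell embryos with a ratio of 2.67 (1.49 to 5.07, adjusted p 0.00182, exact test). Its ratio in null zygotes had much the same value, 2.64 (1.26 to 5.6), but from fewer reads and was not called (adjusted p 0.188, exact test). Rfc3 had 10 reads in null zygotes, 6 in 2-cell embryos and 98 in WT zygotes, and fell in 2-cell embryos with a ratio of 0.0473 (6.61e-04 to 0.345, adjusted p 5.48e-04, exact test). In null zygotes the ratio was 0.231 (0.0138 to 1.21), not called. The ratios of Rfc1 and Rfc2 between the WT stages ran from 0.495 to 0.731, and neither was called. Rfc4 had 6 reads in null zygotes, 0 in 2-cell embryos and 5 in WT zygotes.

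Rpa1, the large subunit of the complex that coats single-stranded DNA (chr11:75300259-75348454), was the one member called in opposite directions in the 2 comparisons. It stood at 335 RPM in null zygotes (444 reads), 53.4 in 2-cell embryos (207 reads) and 162 in WT zygotes (483 reads). The ratio of null to WT zygotes was 2.08 (1.45 to 2.96, adjusted p 0.00363, exact test), and that of 2-cell embryos to WT zygotes 0.331 (0.207 to 0.516, adjusted p 1.44e-06, exact test). The ratios of Rpa2 and Rpa3, its partners, ran from 0.434 to 0.847 in null zygotes and from 1.01 to 1.07 in 2-cell embryos, against WT zygotes, none called. Smyd4 overlaps the span of Rpa1, and reads of the 2 genes could not be told apart if counting ignored strand. Fen1, the flap nuclease that trims Okazaki fragments, stood at 172 RPM in null zygotes (227 reads), 186 in 2-cell embryos (721 reads) and 192 in WT zygotes (575 reads). It did not differ beyond counting error in 2-cell embryos (ratio 0.968, 0.717 to 1.31) or in null zygotes (ratio 0.892, 0.575 to 1.35) against WT zygotes. Lig1, the ligase that seals the fragments, named after its values were seen, had 7 reads in null zygotes, 33 in 2-cell embryos and 8 in WT zygotes, not called.

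Nasp, a chaperone that holds a reserve of histone H3 and H4 (chr4:116601052-116628676), was called lower in both comparisons. It stood at 34.8 RPM in null zygotes (46 reads), 29.9 in 2-cell embryos (116 reads) and 137 in WT zygotes (410 reads). The ratio was 0.253 (0.0943 to 0.568) for null zygotes (adjusted p 0.00899, exact test) and 0.218 (0.118 to 0.382) for 2-cell embryos (adjusted p 2.25e-08, exact test), each against the same WT zygote column. Chaf1a, a subunit of the chromatin assembly factor that places histones behind the fork, stood at 186 RPM in null zygotes (246 reads), 80.8 in 2-cell embryos (313 reads) and 143 in WT zygotes (429 reads). Its ratio between the WT stages, 0.563 (0.374 to 0.842), passed the adjusted p (0.0141, exact test) but not 2-fold. Chaf1b, its partner, named after its values were seen, had 3 reads in null zygotes, 17 in 2-cell embryos and 9 in WT zygotes, not called.

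Of the nucleotide supply genes, Rrm2 and Rrm1 were tested. Rrm2, the small subunit of ribonucleotide reductase (chr12:24708254-24714146), stood at 40.0 RPM in null zygotes (53 reads), 147 in 2-cell embryos (568 reads) and 82.9 in WT zygotes (248 reads). Its ratio of 2-cell embryos to WT zygotes was 1.77 (1.18 to 2.70, adjusted p 0.0153, exact test), under 2-fold, and that of null to WT zygotes 0.483 (0.189 to 1.08), not called. Rrm1, the large subunit, named after its values were seen, had 0 reads in null zygotes, 7 in 2-cell embryos and 36 in WT zygotes and was not called in the exact binomial test. Tyms, the thymidylate synthase, had 0 reads in null zygotes, 9 in 2-cell embryos and 3 in WT zygotes.

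T-to-C reads summed over the 49 members numbered 181 in null zygotes, 1281 in 2-cell embryos and 321 in WT zygotes. This is 3.86% (95% interval 2.53% to 5.61%) of the members' reads in null zygotes, 9.67% (8.38% to 11.1%) in 2-cell embryos and 2.61% (1.91% to 3.46%) in WT zygotes. The ratio of summed T-to-C reads was 3.08 (2.22 to 4.36) for 2-cell embryos and 1.27 (0.755 to 2.11) for null zygotes, against WT zygotes. One gene carried most of the first: without Dbf4 it was 1.31. No unlabelled library was analysed here, so mismatches from sequencing error or sequence differences cannot be told apart from label.

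Of the 23 members tested for T-to-C reads, 2 rose in 2-cell embryos against WT zygotes (Dbf4 and Rrm2) and 0 fell. That is 8.70% higher, where 4.18% of the 4376 genes tested rose and 1.55% fell, 5.74% in all. The median log2 ratio was -0.49 over the members and 0.26 over all genes tested. Dbf4 had 14 T-to-C reads in null zygotes, 784 in 2-cell embryos and 29 in WT zygotes, a ratio between the WT stages of 20.9 (8.05 to 75.7) with an adjusted p of 3.31e-20 in the exact binomial test. The share of its reads with a mismatch was 2.53% (95% interval 0.308% to 8.85%) in null zygotes, 19.1% (95% interval 16% to 22.5%) in 2-cell embryos and 2.05% (95% interval 0.578% to 5.08%) in WT zygotes. Rrm2 had 0 T-to-C reads in null zygotes, 133 in 2-cell embryos and 12 in WT zygotes, and a ratio of 8.56 (1.90 to 97.9, adjusted p 0.0241, exact test). This call was lost with T-to-C totals as the scale, which moved the median of all genes to -0.17 and that of the members to -0.89, and with no filter on low genes. Its share of reads with a mismatch was 0% (95% interval 0% to 38.6%) in null zygotes, 23.4% (95% interval 14.7% to 34.1%) in 2-cell embryos and 4.84% (95% interval 0.455% to 17.8%) in WT zygotes.

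The share itself was tested with Fisher's exact test in 34 members with at least 20 reads in both WT columns, and 2 were higher in 2-cell embryos: Dbf4 (adjusted p 5.42e-09) and Pold3 (adjusted p 0.00470). Over all 6909 genes tested, 1.84% were higher and 0.0579% lower. The share of Rrm2 was not called (adjusted p 0.609, Fisher's exact test). Pold3 had 36 T-to-C reads in null zygotes, 182 in 2-cell embryos and 63 in WT zygotes. The shares were 4.69% (95% interval 1.57% to 10.5%) in null zygotes, 10.1% (95% interval 6.69% to 14.4%) in 2-cell embryos and 2.37% (95% interval 1.09% to 4.45%) in WT zygotes. Its total level was the lower one in 2-cell embryos, as given above, while a larger part of it carried a mismatch. Rfc5 had 0 T-to-C reads in null zygotes, 54 in 2-cell embryos and 1 in WT zygotes, with shares of 0% in null zygotes, 14.6% (95% interval 6.40% to 27.0%) in 2-cell embryos and 0.935% in WT zygotes. Neither its T-to-C reads nor its share passed the adjusted p in the exact tests on molecules. edgeR's exact test, run on reads, called its T-to-C reads higher. Rfc5 passed the filter of 10 T-to-C reads only through 2-cell embryos, the column where it was high. Members that fell in total reads were picked on counts that include T-to-C reads, so few of these in 2-cell embryos were built in. The T-to-C reads there were 11 of 440 reads in Orc5, 9 of 190 in Mcm10 and 3 of 207 in Rpa1. Gins4 had 2 of 119 and Orc4 had 1 of 79. There were 0 of 60 in Mcm5, of 21 in Mcm7, of 6 in Gins1, of 28 in Gins2, of 6 in Rfc3 and of 116 in Nasp. Of all 49 members, 23 had 0 T-to-C reads in 2-cell embryos.

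**Figure D5:**
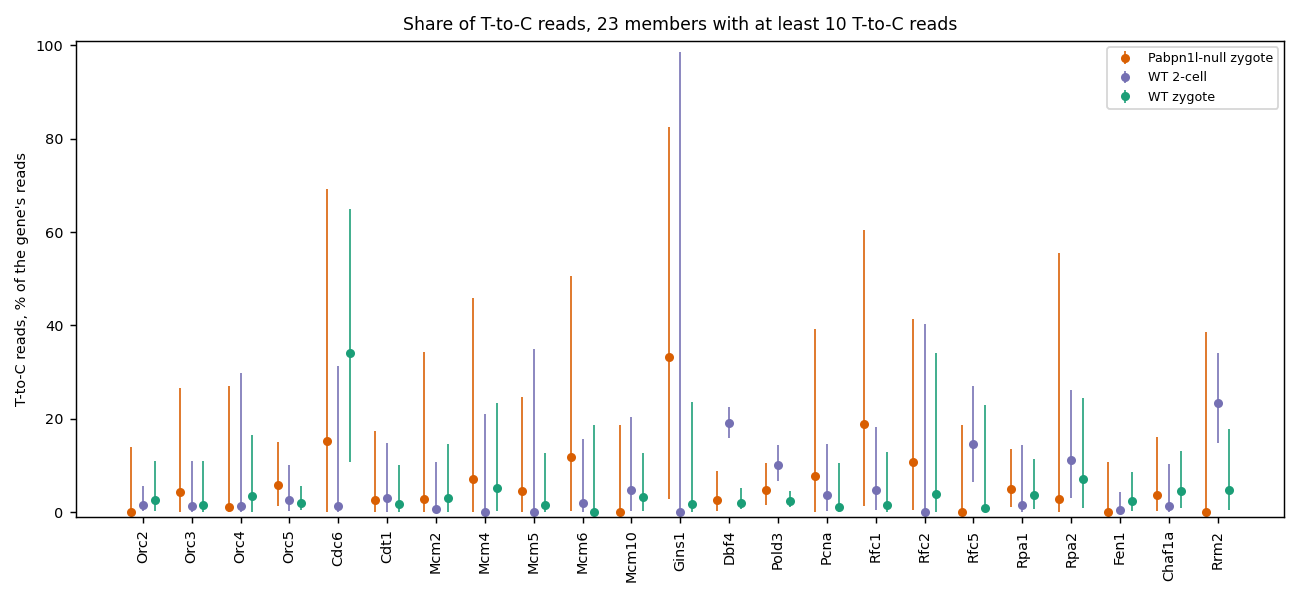
Share of a gene's reads with a T-to-C mismatch, in percent, with its exact 95% interval on molecules, for the 23 members with at least 10 T-to-C reads in Pabpn1l-null zygotes, WT 2-cell embryos and WT zygotes. The shares of Dbf4, Rrm2, Rfc5 and Pold3 in 2-cell embryos stand above those in WT zygotes, a difference called for Dbf4 and Pold3 only. The wide intervals of Cdc6 and Gins1 rest on few molecules.

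In null zygotes against WT zygotes, 0 of the 23 members tested for T-to-C reads were called, at an adjusted or an unadjusted p under 0.05 in the exact test; with edgeR's exact test the count was also 0. Over all 4376 genes, 0.0457% were higher and 0.0% lower. The share was called for 0 of 34 members, 1 of them at an unadjusted p under 0.05, and for 0.0167% of the 5999 genes tested, all lower. Singled out after their values were seen, 2 members held many of their reads with a mismatch in zygotes. Cdc6 had 5 T-to-C reads of 33 in null zygotes, 1 of 75 in 2-cell embryos and 30 of 88 in WT zygotes, a share of 34.1% (95% interval 10.8% to 65.0%) in the last. Gins1 had 11 of 33 in null zygotes, 0 of 6 in 2-cell embryos and 2 of 112 in WT zygotes, and its second row had 10 of 16 in null zygotes, 0 reads in 2-cell embryos and 14 of 28 in WT zygotes. In the exact tests on molecules no difference in the T-to-C reads or the T-to-C share of these 2 members passed the adjusted p. edgeR's exact test, run on reads, called the T-to-C reads of Cdc6 lower in 2-cell embryos than in WT zygotes. Cdc6 passed the filter of 10 T-to-C reads only through WT zygotes, the column where it was high. The second row of Gins1 was not tested. The table also carries the authors' deposited calls of labelled genes, Positive for 4.26% of names in null zygotes, 5.83% in 2-cell embryos and 2.85% in WT zygotes. Among the members the authors' deposited table calls Orc5, Gins1, Pold3 and Rpa1 in null zygotes, Dbf4, Pold3, Rfc5 and Rrm2 in 2-cell embryos, and Cdc6 and Pold3 in WT zygotes.

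Further genes of replication were taken from a list of 44 that hold firing partners, fork protection, the CRL4-Cdt2 ligase, topoisomerases and histone chaperones. Of these, 43 were in the table and 39 were tested. In 2-cell embryos against WT zygotes, 4 of the 39 rose in total reads (10.3%, where 16.4% of all genes rose) and 7 fell (17.9%, where 15.9% of all genes fell), so the falls were near the share over all genes. The median log2 ratio was -0.19, against 0.04 over all genes tested. The 4 were Donson, a helicase assembly factor (ratio 2.98, 1.67 to 5.66), Chtf8, of the alternative clamp loader (ratio 58.9, 13.1 to 918, from 10 reads in WT zygotes), and the histone chaperones Rbbp4 (ratio 2.81, 1.59 to 5.23) and Ssrp1 (ratio 2.66, 1.54 to 4.82). Those that fell were Topbp1, which takes part in CDC45 loading (ratio 0.225, 0.0442 to 0.814), the fork protection genes Timeless (ratio 0.200, 0.0998 to 0.374) and Clspn (ratio 0.448, 0.251 to 0.782), Dtl and Rbx1 of the ligase that degrades CDT1 (ratios of 0.392, 0.240 to 0.627, for Dtl and 0.216, 0.0876 to 0.475, for Rbx1), and the chaperones Rbbp7 (ratio 0.146, 0.104 to 0.202) and Supt16h (ratio 0.374, 0.244 to 0.564). SSRP1 and SUPT16H form the FACT complex, and their genes went in opposite directions. Ssrp1 had 0 T-to-C reads in null zygotes, 199 in 2-cell embryos and 5 in WT zygotes. It was the 1 gene of 22 tested whose T-to-C reads rose between the WT stages (adjusted p 6.13e-05, exact test). That is 4.55%, near the 4.18% of all genes that rose. Ssrp1 passed the filter of 10 T-to-C reads only through 2-cell embryos, the column where it was high. In null zygotes against WT zygotes, 0 of the 39 were called in total reads, where 1.36% of all genes were. Of the 39, 3 had an unadjusted p under 0.05 in the exact test, a count not set beside that of all genes. The median log2 ratio of the 39 was 0.05, against -0.15 over all genes tested.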

How the data were processed

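Per the submitters' processing notes, reads were placed on mm10; the sources used here name no aligner, counter, annotation, strand setting or mismatch caller. The authors deposited 1 table with read counts and T-to-C read counts per name and group. It is not stated whether a column merges the 2 samples of a group. Of 30493 rows, 47 with a date in place of a name were left out, and 1 row was kept for each of 23259 names; 4 members had more than 1 distinct row.

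Factors came from TMM (edgeR 4.0.16, R 4.3.3) on genes with at least 20 reads: 1.04 for null zygotes, 0.963 for 2-cell embryos and 0.996 for WT zygotes. Each gene with at least 20 reads (10 T-to-C reads) over the 3 columns was tested with an exact conditional binomial test on molecules of 7 reads (Python 3.11.15, scipy 1.17.1), adjusted by Benjamini-Hochberg over all genes tested; 0.5 molecule was added before a log2 ratio. The T-to-C share was tested with Fisher's exact test. Intervals are 95% intervals on molecules from the exact formulas. For these and the binomial test, reads divided by 7 were not rounded, so the formulas were continued to non-whole molecules. Fisher's exact test used molecules rounded to whole numbers. The test was tested on simulated data.

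The members, the list of other genes and the tests were chosen with earlier results of these data known. Named are the called members, the member of each role with the most reads, members under 20 reads and called genes of the second list; others with values of their own are said to be named after these were seen, and the rest enter as ranges. Overlapping genes were found from RefSeq spans: 20 members have another gene over theirs. Alternatives were RLE factors, column totals, other filters, other reads per molecule, summed rows, no 2-fold demand and edgeR's exact test. The last was run on reads and not on molecules.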

Additional observations from a re-analysis of the deposited data

How the results depend on the processing

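Counting every read as 1 molecule moved most counts of called members: 3 higher and 10 lower in total reads in null zygotes, 6 higher in T-to-C reads and 6 higher in T-to-C share there, and in 2-cell embryos 4 up and 7 down by T-to-C reads and 4 up and 2 down by T-to-C share, all against WT zygotes. Treating the null column alone as clumped gave 2 members higher in total reads in null zygotes, where 1.75% of all genes were higher. For T-to-C reads in 2-cell embryos it gave 4 higher and 7 lower. edgeR's exact test at an assumed variation of 0.4 was run on reads, not molecules. It gave 0 members higher in total reads in null zygotes, where 0.222% of all genes were. In 2-cell embryos it gave 0 higher and 6 lower for total reads, where 15.4% of all genes were higher and 10.9% lower. For T-to-C reads it gave 3 higher there (Dbf4, Rfc5 and Rrm2) and 1 lower (Cdc6). The counts by T-to-C reads or share in 2-cell embryos are given here without the shares of all genes called. They are therefore not read as a result about the members. Without the 2-fold demand, 2 members were lower in null zygotes (1.55% of all genes were) and 4 higher in 2-cell embryos (19.0% of all genes were). RLE factors gave 4 higher in 2-cell embryos, where 20.3% of all genes were, and a summed ratio of total reads of 0.996. The count of 2 higher in T-to-C reads in 2-cell embryos became 1 with T-to-C reads scaled by their own totals, 1 with no filter, and 0 with at least 50 reads in at least 2 columns. Without Dbf4 the summed ratios for 2-cell embryos were 0.647 for total reads and 1.31 for T-to-C reads. The cause of these shifts was not tested. Of the other 80 values, counts moved by at most 1.5 times and summed ratios stayed within the interval, and none reversed. Of the single members, Mcm5, Mcm7, Gins1, Gins2 and Rfc3 (total reads) and Dbf4 (T-to-C reads) kept their calls under each alternative run for them. The filter of at least 50 reads in at least 2 columns left out all of these but Mcm5, so it was not run for the rest. In 2-cell embryos Mcm7 had 21 reads, Gins1 had 6, Gins2 had 28 and Rfc3 had 6. No paired analysis was possible because the table has 1 column pair per group and no columns per sample; leaving out a replicate was not possible for the same reason. Depth limits what can be said of T-to-C reads, which were 0 for 29 of 49 members in null zygotes, 23 in 2-cell embryos and 15 in WT zygotes.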
